A study of Mus musculus with 6 samples.

Results

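Cholesterol synthesis, transport and oxysterol control was followed as a set of 34 genes, all of which were found among the 54532 genes measured in mouse cervical spinal cord. The members were listed by their role and matched by gene symbol. The rule uses no measured value, but the members were chosen with earlier results of these data known. The same holds for the neighbouring genes and cell type markers given below. They comprised 18 enzymes of sterol synthesis, 5 genes of the SREBP control system, 6 genes of sterol transport and storage, 3 genes of the LXR system and 2 sterol hydroxylases. RNA had been sequenced from 3 C57BL/6 mice given imiquimod and 3 C57BL/6 mice given vehicle, with 1 library per mouse. Imiquimod mice had received 50 mg of cream with 5% imiquimod, an agonist of Toll-like receptor 7, on the shaved neck skin once daily for 2 days, which induces a psoriasis-like dermatitis. Vehicle mice had received the same amount of cream without the drug. Age and sex were not given in the labels used here. The drug was put on skin, and the spinal cord was the tissue sampled.

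The brain and spinal cord make nearly all of their own cholesterol, because lipoproteins of the blood do not cross the blood-brain barrier, and myelin holds most of it. Acetyl-CoA is condensed to mevalonate, mevalonate is turned into isoprenoids and squalene, and squalene is cyclised to lanosterol and trimmed to cholesterol. When membrane sterol is low, the SREBP transcription factors are carried by Scap from the endoplasmic reticulum to the Golgi, are cleaved there and switch on the synthesis genes. Insig proteins hold them back. Oxysterols, which are hydroxylated cholesterol, bind Insig proteins and also activate the LXR nuclear receptors, which drive sterol export.

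Levels are given as FPKM (sequenced fragments scaled by exon length and by library size), as deposited. Changes are log2 differences, imiquimod minus vehicle, ± SE on the log2(FPKM + 0.1) scale, and a gene was called at a limma adjusted p under 0.05 over all genes tested. Of the 34 members, 33 passed the filter on low values (a mean of at least 0.5 FPKM in either group). Of the 33, 4 were called higher (Srebf1, Npc2, Abcg1 and Ch25h) and 6 were called lower (Hmgcs1, Idi1, Tm7sf2, Sc5d, Dhcr7 and Stard4) in imiquimod cords. Over all 16513 genes tested, 8.74% were called higher and 5.34% were called lower. The median log2 change of the members was -0.16, against -0.01 over all genes tested. Of the 2326 genes called in all, 62.1% were higher, and with quantile normalization 50.9% of the calls were higher, so the balance of directions over all genes depends on the scaling. The members' own split was 3 higher and 8 lower with quantile normalization.

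**Figure D1:**
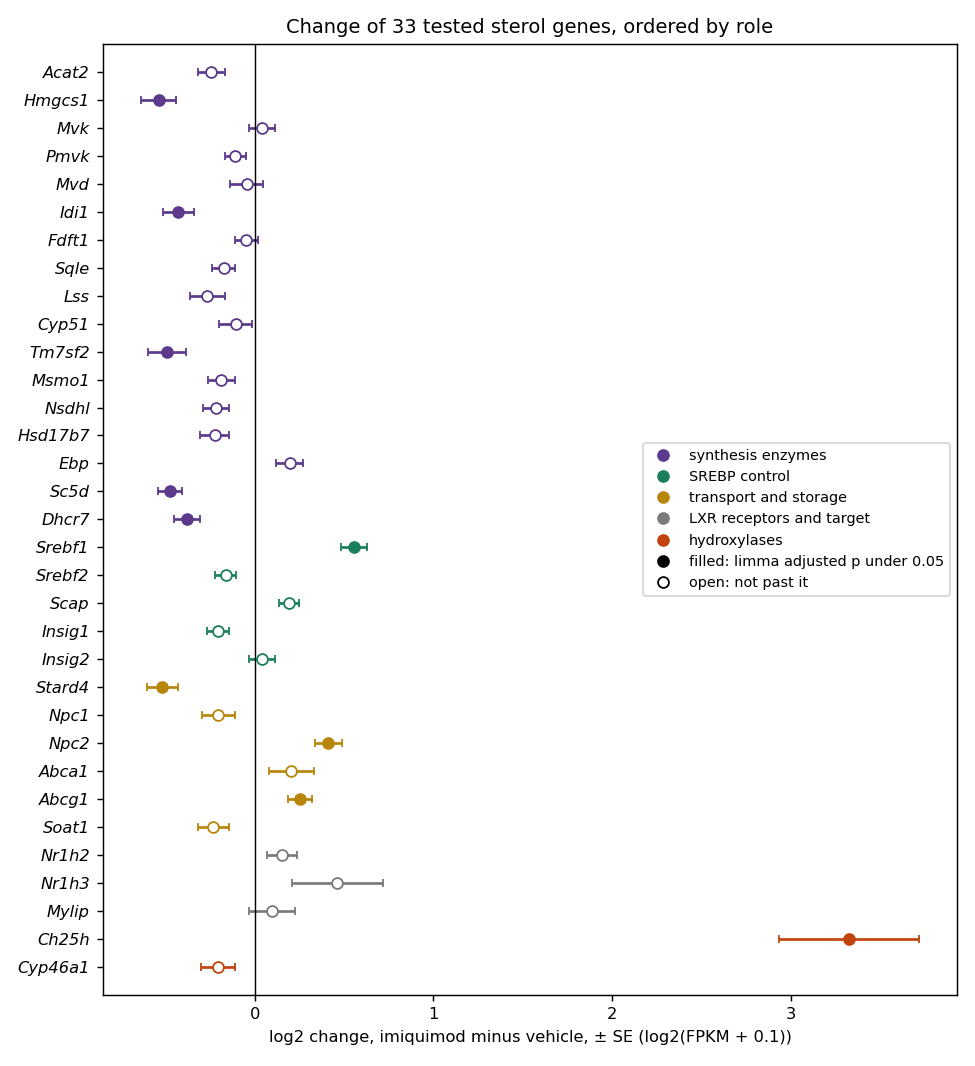
Log2 change (x axis, imiquimod minus vehicle, on the log2(FPKM + 0.1) scale, bars ± SE) of the 33 tested members (y axis, ordered by role, synthesis enzymes in pathway order). Filled points passed a limma adjusted p of 0.05; most synthesis enzymes lie left of 0, and Ch25h at 3.33 lies far right of all other members.

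The libraries held 21242434 to 23200999 recovered fragments in imiquimod mice and 18174420 to 20672895 in vehicle mice, so every imiquimod library was the deeper (p = 0.1 by an exact permutation test, two-sided, a floor set by groups of 3). Markers of neurons, oligodendrocytes, astrocytes and microglia were above 0 in every library, as the tissue label requires. Interferon-stimulated genes were called higher for 10 of 10, against 8.74% of all genes tested. Their summed level was 1039 to 1608 FPKM in imiquimod cords and 45.0 to 163 FPKM in vehicle cords. Imiquimod replicate 3 stood apart at Gapdh, a glycolytic enzyme gene with many pseudogenes, with 26.4 FPKM against 1.56 to 2.15 FPKM in the other 5 libraries. For members and neighbouring genes, calls lost without that library are named, with the adjusted p given as a range over the fits that lost the call. Calls of cell type markers are given with all 6 libraries only.

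Sterol synthesis enzymes were lower in imiquimod cords at several separate steps of the pathway. Of the 17 tested, 5 were called lower and none was called higher. At an unadjusted p under 0.05, 11 enzymes were lower and 1 was higher, against 13.9% of all genes tested lower and 16.3% higher at that threshold. The log2 change lay below 0 in 15 of the 17, against 50.9% of all genes tested, and the median was -0.22. In 12 of the 17 every imiquimod library lay below every vehicle library, as in 18.0% of all genes tested. In 1 of the 17 (Ebp) every imiquimod library lay above every vehicle library, as in 19.8% of all genes tested. The changes were small in size, the steepest being -0.54 on the log2 scale.

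The summed level of the 18 enzymes was 434, 440.5 and 379 FPKM in imiquimod cords, against 513, 506 and 495 FPKM in vehicle cords. The groups did not overlap, and the mean was lower by 17.2% in imiquimod cords. Without Hmgcs1, the most abundant enzyme gene, the sum was 329, 334 and 294 FPKM in imiquimod cords, against 365, 363 and 357 FPKM in vehicle cords. Imiquimod replicate 3 had the lowest level of the 3 imiquimod libraries for 15 of the 18 enzymes, and the other 2 imiquimod sums also lay below every vehicle sum.

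The early steps lead from acetyl-CoA to mevalonate and on to the isoprenoid building blocks. Hmgcs1, the cytosolic synthase that condenses acetoacetyl-CoA with acetyl-CoA (chr13:119690379-119708260, plus strand), stood at 105, 106 and 85.3 FPKM in imiquimod cords, against 148, 143 and 138 FPKM in vehicle cords. All imiquimod values lay below all vehicle values, and the gene fell by 0.54 ± 0.10 (limma adjusted p = 0.0154). This call ended when any 1 vehicle library was left out (limma adjusted p from 0.0531 to 0.0734). The number of calls over all genes fell in those fits as well, and the log2 change of Hmgcs1 ranged from -0.59 to -0.44 over the 16 alternatives. Idi1, which isomerises the isoprenoid unit isopentenyl diphosphate (chr13:8885501-8892451, plus strand), stood at 14.3, 16.1 and 13.2 FPKM in imiquimod cords, against 18.6, 20.4 and 19.6 FPKM in vehicle cords. Its groups did not overlap either, and it fell by 0.43 ± 0.09 (limma adjusted p = 0.0216). That call ended without any 1 library except imiquimod replicate 2 (limma adjusted p from 0.0533 to 0.0841). Acat2, the thiolase ahead of Hmgcs1, averaged 25.04 ± 1.56 FPKM in imiquimod cords and 29.7 ± 1.99 FPKM in vehicle cords (SD, n = 3 each), a log2 change of -0.24 ± 0.08 that did not pass (limma adjusted p = 0.0791). It passed with quantile normalization (limma adjusted p = 0.0432) and with the length and GC trend removed (0.0267).

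None of the 3 enzymes that phosphorylate and decarboxylate mevalonate was called. Mvk averaged 17.3 ± 1.24 FPKM in imiquimod cords and 16.8 ± 0.745 FPKM in vehicle cords, Pmvk 28.4 ± 1.39 and 30.6 ± 0.374 FPKM, and Mvd 19.3 ± 2.19 and 19.9 ± 1.01 FPKM (SD, n = 3 each). Their log2 changes were 0.04 ± 0.07, -0.11 ± 0.06 and -0.05 ± 0.09 (limma adjusted p of 0.753, 0.259 and 0.776), and the groups overlapped for Mvk and Mvd but not for Pmvk. Fdft1, the squalene synthase, averaged 28.5 ± 1.74 FPKM in imiquimod cords and 29.4 ± 0.723 FPKM in vehicle cords, with a log2 change of -0.05 ± 0.07. Of its exon bases 18.3% lie opposite those of Ctsb, at 118 to 201 FPKM, and the strand setting of the counting is not given in the sources used here. Fdps, the farnesyl diphosphate synthase, was listed at only 0.426, 0.457 and 0.608 FPKM in imiquimod cords and 0.416, 0.437 and 0.377 FPKM in vehicle cords and was not tested. Of its 4208 exon bases, 1124 are shared on the same strand with Gm43738, which was listed at 0 in every library, so the level of Fdps is uncertain.

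The promoters of 2 fallen enzymes are shown because the SREBP factors act at such sequences together with factors of the CCAAT box. Each is the 250 bases ahead of the annotated start (RefSeq, GRCm38.p6), 5′ to 3′ on the strand of the gene. Capitals mark matches to the sterol regulatory element TCACNCCAC and to the CCAAT box (CCAAT, or ATTGG on the other strand). They lie at chr13:119690101-119690350 (plus strand) for Hmgcs1 and chr9:42264301-42264550 (minus strand) for Sc5d.
Hmgcs1: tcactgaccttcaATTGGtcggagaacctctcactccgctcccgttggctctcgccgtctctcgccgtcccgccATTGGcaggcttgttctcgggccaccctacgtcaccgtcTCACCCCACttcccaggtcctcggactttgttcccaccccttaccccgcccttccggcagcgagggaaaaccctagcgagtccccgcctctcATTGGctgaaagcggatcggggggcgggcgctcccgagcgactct
Sc5d: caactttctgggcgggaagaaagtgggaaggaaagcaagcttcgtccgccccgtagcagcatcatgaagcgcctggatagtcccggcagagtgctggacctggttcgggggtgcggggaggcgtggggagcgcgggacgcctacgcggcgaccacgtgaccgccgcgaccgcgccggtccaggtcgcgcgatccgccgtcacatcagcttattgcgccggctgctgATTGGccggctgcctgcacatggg

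Hmgcs1 held the sterol regulatory element at bases -137 to -129 from its start and CCAAT boxes around it, while Sc5d held a CCAAT box alone. RefSeq promoters were at hand for 28 of the 34 members, 37 windows of 250 bases before to 50 after a start. On either strand the sterol regulatory element matched 1 of the 37 (Hmgcs1), against 1.24% of all 32851 promoters of this length. The CCAAT box matched 62.2% of the 37, against 37.4% of all promoters, and it was found in 22 of the 28 genes. The LXR direct repeat was searched only in a strict form: RGKTCA, 4 spacer bases and RGKTCA again (R is A or G, K is G or T). It was found in none of the 37, against 0.0822% of all promoters. A form this rare cannot show whether the members hold LXR elements. Looser forms were not searched, and no window was at hand for Abcg1. No match means only that these letters are not in the window.

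The late steps turn squalene into cholesterol, and 3 of their 10 enzymes fell. Tm7sf2, a sterol C14 reductase (chr19:6062821-6068373, minus strand), stood at 3.66, 4.14 and 3.22 FPKM in imiquimod cords, against 5.09, 5.00 and 5.48 FPKM in vehicle cords. The groups did not overlap, and it fell by 0.49 ± 0.11 (limma adjusted p = 0.0266). It is the least abundant of the tested enzymes, shares 12.1% of its exon bases with Vps51 on the same strand, and kept its call only without imiquimod replicate 2 among the 6 libraries left out in turn (limma adjusted p from 0.0588 to 0.098 without each of the others). Sc5d, which desaturates the sterol ring (chr9:42251595-42264256, minus strand), stood at 31.8, 31.4 and 27.95 FPKM in imiquimod cords, against 42.3, 42.6 and 41.7 FPKM in vehicle cords. Its vehicle values lay close together and all above the imiquimod values, and it fell by 0.48 ± 0.07 (limma adjusted p = 0.00693), a call that held in all 16 alternatives. Dhcr7, the reductase that ends a branch of the pathway (chr7:143823145-143848410, plus strand), stood at 11.6, 11.8 and 10.8 FPKM in imiquimod cords, against 15.4, 15.4 and 13.8 FPKM in vehicle cords. It fell by 0.38 ± 0.07 with no overlap of the groups (limma adjusted p = 0.0186). The call ended without imiquimod replicate 3, vehicle replicate 1 or vehicle replicate 2 (limma adjusted p from 0.0555 to 0.0889). Its log2 change ranged from -0.43 to -0.34 over the 16 alternatives.

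The other 7 late enzymes did not pass. Sqle, the squalene epoxidase, averaged 24.2 ± 1.403 FPKM in imiquimod cords and 27.3 ± 1.04 FPKM in vehicle cords, a log2 change of -0.18 ± 0.07. Lss, which forms lanosterol, averaged 6.35 ± 0.789 FPKM in imiquimod cords and 7.62 ± 0.180 FPKM in vehicle cords, a log2 change of -0.27 ± 0.10 that passed without imiquimod replicate 2 (limma adjusted p = 0.0412). Cyp51, the lanosterol demethylase and the second most abundant enzyme gene, averaged 49.3 ± 5.87 FPKM in imiquimod cords and 52.9 ± 1.22 FPKM in vehicle cords, with overlapping groups. The demethylation enzymes Msmo1, Nsdhl and Hsd17b7 had log2 changes of -0.19 ± 0.07, -0.22 ± 0.07 and -0.23 ± 0.08, and in each of them the groups did not overlap. Hsd17b7 passed without imiquimod replicate 2 (limma adjusted p = 0.0499) and Nsdhl with the length and GC trend removed (limma adjusted p = 0.0391). Ebp, the isomerase between these enzymes and Sc5d, lay on the other side of 0, with 16.7, 14.9 and 14.1 FPKM in imiquimod cords and 13.4, 13.6 and 12.9 FPKM in vehicle cords. Its log2 change of 0.19 ± 0.08 did not pass (limma adjusted p = 0.138).

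**Figure D2:**
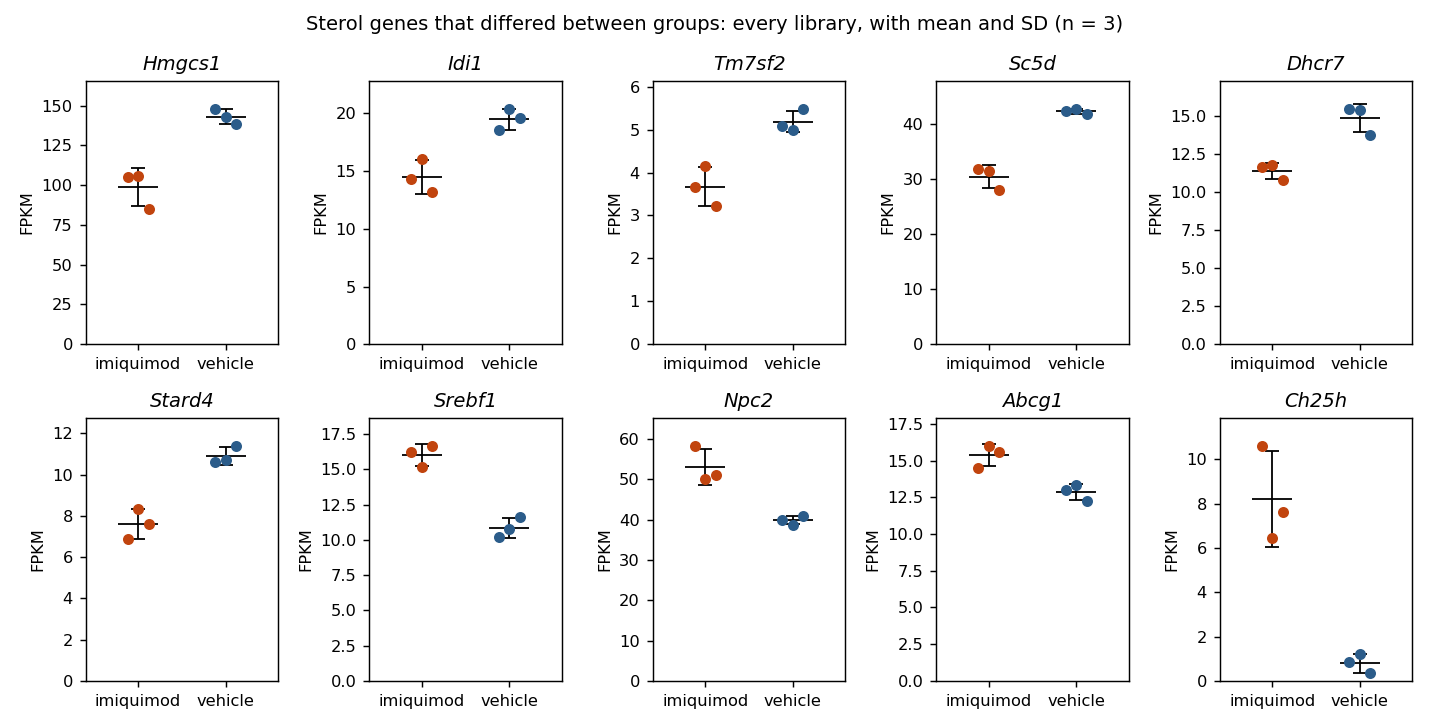
FPKM (y axis, from 0) of the 10 called members in each library, with imiquimod mice left and vehicle mice right in every panel; black lines are the mean and SD (n = 3 each). In all 10 panels the groups do not overlap, and the gap is widest for Ch25h at 8.21 FPKM on average in imiquimod cords against 0.79 FPKM in vehicle cords.

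Markers of the cells that make and hold much of the cord's sterol moved as well. The 9 oligodendrocyte markers summed to 4956 to 6453 FPKM in imiquimod cords and 7656 to 8190 FPKM in vehicle cords, with 2 called lower (Opalin and Ermn). The 9 markers of new oligodendrocytes and precursors summed to 198 to 241 FPKM in imiquimod cords and 257 to 278 FPKM in vehicle cords, with 3 called lower (Gpr17, Enpp6 and Neu4). Astrocyte markers summed to 1297 to 1494 FPKM in imiquimod cords and 1456 to 1514 FPKM in vehicle cords. This sum is dominated by Gfap and Aldoc, of which neither was called (log2 changes of 0.23 and -0.16). Of the 9, 3 were called lower (Slc1a2, Gja1 and Slc7a10, at -0.70, -1.10 and -1.16) and 1 higher (Aldh1l1, at 0.76). Neuron markers summed to 708 to 885 FPKM in imiquimod cords and 952 to 987 FPKM in vehicle cords, with 1 of 8 called lower. Over all genes tested, 5.34% were called lower and 8.74% higher. None of these markers was listed at 0 in any library. Schwann cell markers, from nerve roots, varied from 47.3 to 242 FPKM in imiquimod cords and from 228 to 337 FPKM in vehicle cords, and none of 4 tested was called. In whole tissue, fewer cells of a type and less RNA per cell cannot be told apart, and the part of these markers in the fall of the synthesis enzymes was not tested.

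**Figure D3:**
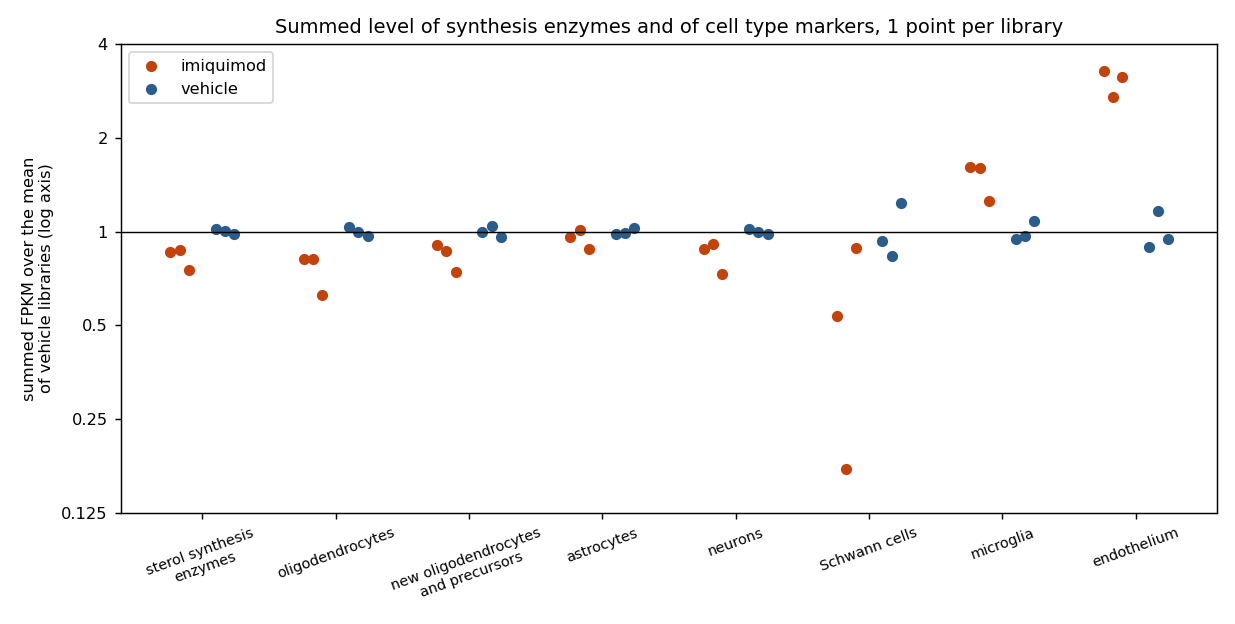
Summed FPKM of the 18 synthesis enzymes and of cell type marker lists in each library, divided by the mean of the vehicle libraries (y axis, log scale), imiquimod left and vehicle right of each tick. The synthesis enzymes lie below 1 in all 3 imiquimod libraries, lowest in replicate 3. So do the markers of oligodendrocytes, of new oligodendrocytes and precursors, and of neurons. Schwann cell markers lie below 1 in all 3 as well, lowest in replicate 2, and microglia and endothelium lie above 1.

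The SREBP control genes had changes in both directions, of which 1 passed. Srebf1, which encodes SREBP-1 (chr11:60199089-60222581, minus strand), stood at 16.2, 15.2 and 16.7 FPKM in imiquimod cords, against 10.2, 10.8 and 11.6 FPKM in vehicle cords. It rose by 0.56 ± 0.07 with no overlap of the groups (limma adjusted p = 0.00522), and the call held in all 16 alternatives. The gene has several annotated starts, and the deposited values do not separate its transcripts. Srebf2, which encodes SREBP-2, the factor more closely tied to the cholesterol enzymes, averaged 28.9 ± 1.17 FPKM in imiquimod cords and 32.4 ± 0.582 FPKM in vehicle cords (SD, n = 3 each). Its log2 change was -0.16 ± 0.06 and did not pass (limma adjusted p = 0.105). Scap, the escort of the SREBP factors, averaged 11.8 ± 0.360 FPKM in imiquimod cords and 10.4 ± 0.165 FPKM in vehicle cords, a log2 change of 0.19 ± 0.06 (limma adjusted p = 0.0724).

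Insig1, a retention protein whose gene is itself an SREBP target, averaged 51.0 ± 2.28 FPKM in imiquimod cords and 58.9 ± 2.41 FPKM in vehicle cords. Its log2 change of -0.21 ± 0.06 missed the threshold (limma adjusted p = 0.0748) and passed with quantile normalization (0.0297) and with the length and GC trend removed (0.0184). Insig2 averaged 17.9 ± 1.13 FPKM in imiquimod cords and 17.4 ± 0.796 FPKM in vehicle cords, with overlapping groups. Srebf1 was the single gene of the 5 that passed. The groups did not overlap in Srebf2 and Insig1 either, which were lower, as in 18.0% of all genes tested. Nor did they in Scap, which was higher, as in 19.8% of all genes tested. At an unadjusted p under 0.05, 2 of the 5 were higher and 2 lower, against 16.3% and 13.9% of all genes tested.

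Sterol transport and storage genes moved in both directions, with 2 called higher and 1 lower of 6, against 8.74% and 5.34% of all genes tested. At an unadjusted p under 0.05, 2 of the 6 were higher and 2 lower, against 16.3% and 13.9%. Stard4, a soluble sterol carrier and SREBP target (chr18:33199355-33213862, minus strand), stood at 6.86, 8.33 and 7.62 FPKM in imiquimod cords, against 10.6, 10.7 and 11.4 FPKM in vehicle cords. It fell by 0.52 ± 0.09 with no overlap of the groups (limma adjusted p = 0.0112), though the call ended without vehicle replicate 3 (0.0526). Npc2, which takes cholesterol up inside the lysosome (chr12:84754562-84773152, minus strand), stood at 58.3, 50.2 and 51.0 FPKM in imiquimod cords, against 40.0, 38.8 and 40.8 FPKM in vehicle cords. It rose by 0.41 ± 0.07 (limma adjusted p = 0.0149), with a call that ended without any 1 vehicle library (0.0536 to 0.0686). Its membrane partner Npc1, to which Npc2 hands cholesterol for export from the lysosome, averaged 9.78 ± 1.09 FPKM in imiquimod cords and 11.2 ± 0.171 FPKM in vehicle cords, with a log2 change of -0.20 ± 0.09, short of the threshold. The difference between Npc2 and Npc1 was not tested.

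Abcg1, a sterol exporter and LXR target (chr17:31057675-31117988, plus strand), stood at 14.5, 16.003 and 15.6 FPKM in imiquimod cords, against 13.01, 13.3 and 12.3 FPKM in vehicle cords. It rose by 0.25 ± 0.07, just past the threshold (limma adjusted p = 0.048), and was not called in 9 of the 16 alternatives (0.0672 to 0.16). Those include leaving out any 1 library except imiquimod replicate 1. Abca1, which loads cholesterol onto lipoproteins, averaged 4.24 ± 0.602 FPKM in imiquimod cords and 3.65 ± 0.372 FPKM in vehicle cords, with overlapping groups and a log2 change of 0.20 ± 0.13. Soat1, which esterifies cholesterol for storage, averaged 3.30 ± 0.262 FPKM in imiquimod cords and 3.89 ± 0.123 FPKM in vehicle cords, a log2 change of -0.23 ± 0.09 that missed the threshold (limma adjusted p = 0.12501).

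None of the 3 LXR genes was called by limma, and in none of them were the groups apart. At an unadjusted p under 0.05, 0 of the 3 passed, against 16.3% of all genes tested higher and 13.9% lower. Nr1h2, the widely expressed LXR beta, averaged 21.9 ± 1.97 FPKM in imiquimod cords and 19.7 ± 1.09 FPKM in vehicle cords, a log2 change of 0.15 ± 0.08. Nr1h3, the LXR alpha of macrophages and liver, stood at 3.26, 1.88 and 3.98 FPKM in imiquimod cords, against 1.91, 2.24 and 2.11 FPKM in vehicle cords. Imiquimod replicate 2 lay below every vehicle library, and the log2 change of 0.46 ± 0.25 did not pass (limma adjusted p = 0.268), but it reached 0.76 without that library (limma adjusted p = 0.0152). Mylip, an LXR target that marks lipoprotein receptors for degradation, averaged 4.18 ± 0.732 FPKM in imiquimod cords and 3.87 ± 0.114 FPKM in vehicle cords. Monocyte markers followed the same order among imiquimod libraries, with summed levels of 60.7, 21.9 and 78.4 FPKM in replicates 1, 2 and 3, and with 1.79 to 9.64 FPKM in vehicle cords. Replicate 2 was also lowest and replicate 3 highest among imiquimod libraries in the summed markers of meningeal fibroblasts (32.5, 12.3 and 81.5 FPKM), Schwann cells (147, 47.3 and 242 FPKM) and border macrophages (2.05, 1.156 and 5.31 FPKM). The part of these lists in the level of Nr1h3 was not tested.

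Ch25h, the enzyme that makes 25-hydroxycholesterol and an interferon-induced gene in macrophages, changed more than any other member tested. At chr19:34473778-34475164 (minus strand), it stood at 10.6, 6.43 and 7.61 FPKM in imiquimod cords, against 0.837, 1.19 and 0.341 FPKM in vehicle cords. Even the lowest imiquimod library lay far above the highest vehicle library, and the ratio of the group means was 10.4. Ch25h rose by 3.33 ± 0.39 (limma adjusted p = 0.00368), a call that held in all 16 alternatives with log2 changes from 2.37 to 3.66. The levels rest on about 303, 199 and 248 fragments in imiquimod libraries and about 21, 29 and 9 fragments in vehicle libraries, so the vehicle level is the less certain. Gm26902, which overlaps 11.5% of its exon bases on the opposite strand, was listed at 0.214 to 0.368 FPKM.

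Irf7, an interferon pathway factor, stood at 234, 169.5 and 193 FPKM in imiquimod cords and at 3.58, 20.8 and 8.63 FPKM in vehicle cords. In imiquimod mice Ch25h and Irf7 were both highest in replicate 1 and lowest in replicate 2. In vehicle mice both were highest in replicate 2, but Ch25h was lowest in replicate 3 and Irf7 in replicate 1. Among the other interferon-stimulated genes listed, Ifit1 alone was lowest in imiquimod replicate 3, and Cxcl10 alone was highest in vehicle replicate 1. An order of 3 libraries per group cannot show a link between genes. The microglia markers summed to 124.9 to 161 FPKM in imiquimod cords and 94.6 to 108 FPKM in vehicle cords, with 3 of 8 called higher (Tmem119, Aif1 and Olfml3). The log2 change lay above 0 in 5 of the 8 and below 0 in 3. P2ry12 and Siglech lay at -0.75 ± 0.21 and -1.32 ± 0.50, with every imiquimod library below every vehicle library. Neither was called (limma adjusted p of 0.0591 and 0.126). Monocyte markers were called higher for 4 of 5, endothelial markers higher for 4 of 6 and lower for 1, and border macrophage markers lower for 3 of 5. Over all genes tested, 8.74% were called higher and 5.34% lower. The part of these cells, and that of interferon, in the rise of Ch25h was not tested.

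The 250 bases ahead of the Ch25h start (RefSeq, GRCm38.p6, chr19:34475149-34475398, minus strand, 5′ to 3′) are shown because this gene changed most. The interferon-stimulated response element core GAAANNGAA was searched on both strands in its whole window and was not found there. It matched 1 of the 37 windows of members (Ebp), against 8.56% of all promoters. There was no match to the sterol regulatory element or the CCAAT box in these bases either, so no letter is in capitals.
Ch25h: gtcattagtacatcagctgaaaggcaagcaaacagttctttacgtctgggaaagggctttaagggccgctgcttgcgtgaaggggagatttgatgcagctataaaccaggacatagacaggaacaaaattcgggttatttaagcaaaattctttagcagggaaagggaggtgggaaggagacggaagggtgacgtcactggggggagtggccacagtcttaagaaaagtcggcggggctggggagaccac

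Cyp46a1, the neuronal enzyme that makes 24-hydroxycholesterol and so clears cholesterol from the nervous system, was not called. It averaged 11.7 ± 1.17 FPKM in imiquimod cords and 13.4 ± 0.900 FPKM in vehicle cords (SD, n = 3 each), with overlapping groups. The log2 change of -0.21 ± 0.09 did not pass (limma adjusted p = 0.189), but it did with the length and GC trend removed (-0.32, limma adjusted p = 0.0359).

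Genes next to the members in sterol and lipid metabolism were taken from a list of 48, of which 46 passed the filter on low values. In imiquimod cords 4 of them were called higher and 5 lower, against 8.74% and 5.34% of all genes tested. Their median log2 change was -0.02. Fatty acid and acetyl-CoA genes under SREBP control had 3 of 11 called lower and none called higher. At an unadjusted p under 0.05, 5 of the 11 were lower and 0 were higher, against 13.9% and 16.3% of all genes tested. All 11 log2 changes lay below 0, from -0.63 to -0.03, with a median of -0.17, and the smallest, that of Fads2, a fatty acid desaturase, was within its SE of 0.09. Scd2, the main stearoyl-CoA desaturase of the nervous system, stood at 451, 514 and 432 FPKM in imiquimod cords, against 712, 678 and 693 FPKM in vehicle cords. It fell by 0.58 ± 0.09 (limma adjusted p = 0.0107), though not without vehicle replicate 1 or vehicle replicate 3 or with no filter on low values (0.0512 to 0.0616).

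Elovl6, a fatty acid elongase, fell by 0.63 ± 0.10 (limma adjusted p = 0.011), though the call ended without vehicle replicate 1 (0.0524). Elovl5, another elongase, fell by 0.28 ± 0.07 (limma adjusted p = 0.0391), a call that ended in 7 of the 16 alternatives (0.0604 to 0.161): with the replicate block, with no low-value filter, and without any 1 library except imiquimod replicate 2. Fasn, the fatty acid synthase and a classic target of the Srebf1 product, averaged 31.5 ± 3.69 FPKM in imiquimod cords and 33.4 ± 2.39 FPKM in vehicle cords, with a log2 change of -0.09 ± 0.10, and was not called.

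The LXR targets outside the members had 1 of 6 called, Pltp, a phospholipid transfer protein. It stood at 11.2, 13.3 and 13.2 FPKM in imiquimod cords, against 20.6, 17.7 and 20.9 FPKM in vehicle cords, and fell by 0.65 ± 0.10 (limma adjusted p = 0.00838). At an unadjusted p under 0.05, 2 of the 6 were higher, Lpcat3 at 0.22 ± 0.08 and Apoc1 at 0.51 ± 0.18 (limma adjusted p of 0.113 and 0.102), and 1 was lower, against 16.3% and 13.9% of all genes tested. Cyp27a1, which makes 27-hydroxycholesterol, stood at 12.7, 13.4 and 13.5 FPKM in imiquimod cords, against 19.4, 19.3 and 17.9 FPKM in vehicle cords. It fell by 0.51 ± 0.06 (limma adjusted p = 0.00407). The 3 oxysterol-forming hydroxylases were thus higher for Ch25h, lower for Cyp27a1 and not called for Cyp46a1. Gpr183, a receptor for an oxysterol made from 25-hydroxycholesterol, stood at 0.790, 0.666 and 0.354 FPKM in imiquimod cords, against 0.783, 0.518 and 0.708 FPKM in vehicle cords, and did not pass.

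Among 19 tested genes of uptake, carriers and storage, 4 were called higher and none lower. At an unadjusted p under 0.05, 5 were higher and 1 was lower, against 16.3% and 13.9% of all genes tested. Apod, a lipid-binding lipocalin of glia, stood at 1046, 862 and 1093 FPKM in imiquimod cords, against 236, 258 and 291 FPKM in vehicle cords, and rose by 1.93 ± 0.13 (limma adjusted p = 6.77e-04). Plin2, a coat protein of lipid droplets, stood at 11.3, 8.86 and 11.5 FPKM in imiquimod cords, against 4.57, 5.68 and 5.34 FPKM in vehicle cords, and rose by 1.001 ± 0.13 (limma adjusted p = 0.00471). Lcat, which esterifies cholesterol on lipoproteins, rose by 0.61 ± 0.09 (limma adjusted p = 0.00669), and Clu, a lipoprotein also called apolipoprotein J, rose by 0.53 ± 0.07 (limma adjusted p = 0.00439). These 4 calls, and those of Pltp and Cyp27a1, held in all 16 alternatives.

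**Figure D4:**
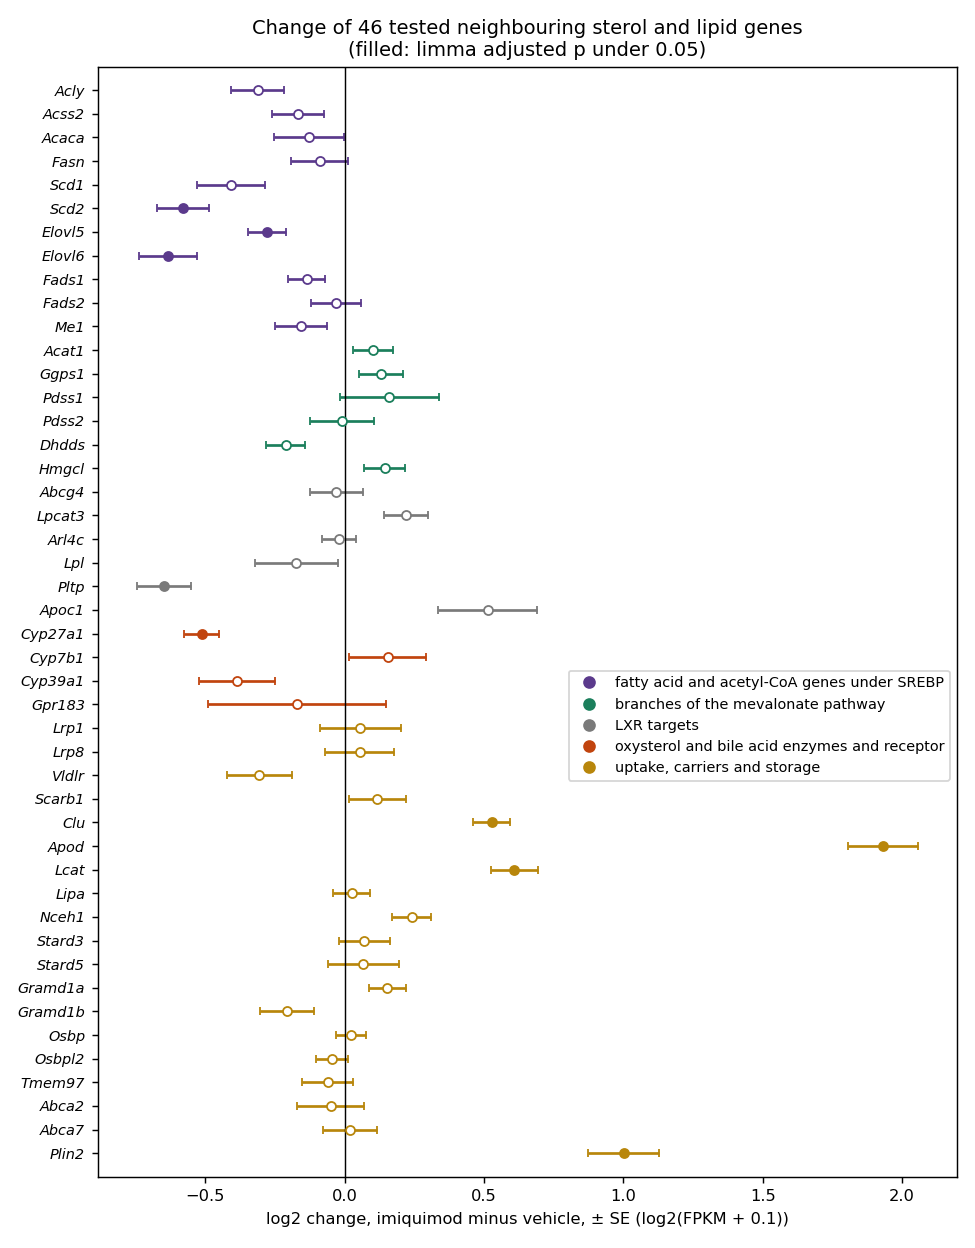
Log2 change (x axis, imiquimod minus vehicle, on the log2(FPKM + 0.1) scale, bars ± SE) of the 46 tested neighbouring genes (y axis, grouped by role). Filled points passed a limma adjusted p of 0.05; the 11 fatty acid and acetyl-CoA genes all lie left of 0, and Apod at 1.93 and Plin2 at 1.001 lie farthest right.

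Of the 10 calls among the members, those of Ch25h, Srebf1 and Sc5d held in every alternative run. Stard4 lost its call in 1 of 16, Hmgcs1, Dhcr7 and Npc2 in 3, Idi1 in 5, Tm7sf2 in 7 and Abcg1 in 9. No called member changed direction in any of the 16. Calls over all genes shifted too, from 1444 higher and 882 lower with all 6 libraries. Without vehicle replicate 1, 2 or 3 there were 660, 770 and 758 higher and 187, 252 and 252 lower. Without imiquimod replicate 2 there were 1690 higher and 1296 lower.

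**Figure D5:**
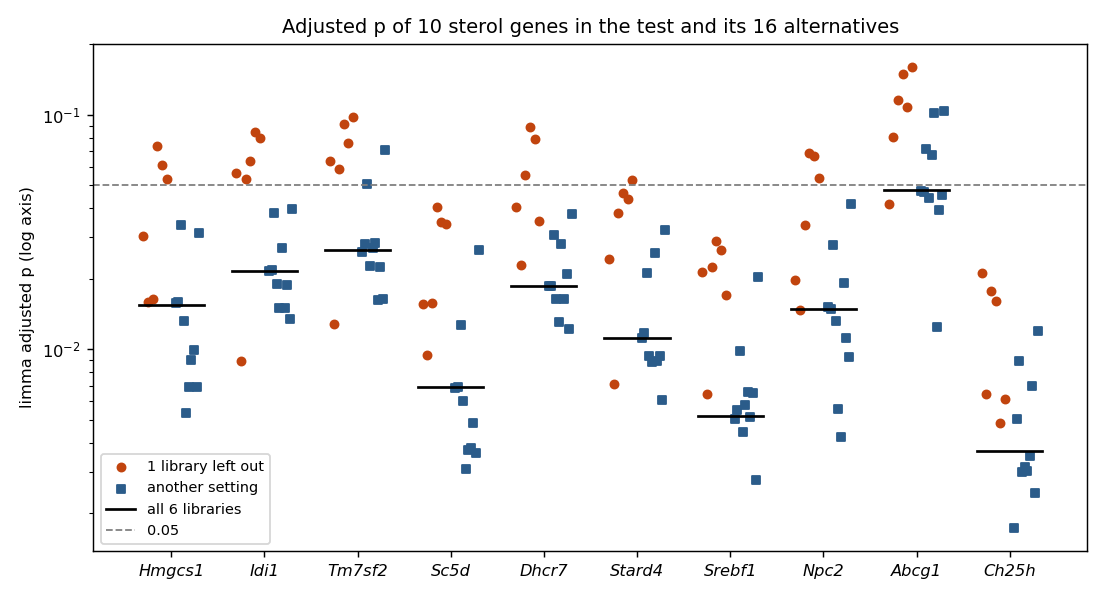
Limma adjusted p (y axis, log scale) of the 10 called members in the test with all 6 libraries (black line), with 1 library left out (circles) and under another setting (squares); the dashed line is 0.05. Ch25h, Srebf1 and Sc5d stay under the line throughout, while Abcg1 crosses it in 9 of 16 alternatives.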

How the data were processed

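RNA of cervical spinal cord was sequenced from 6 mice, 3 per group; the labels name the libraries of a group as biological replicates. The deposited values are FPKM, 1 file per library. HISAT2 2.0.5, featureCounts 1.5.0-p3, DESeq2 1.16.1 and the build mm10 (GRCm38) are named, per the submitters' processing notes, without their roles. That the values are FPKM was read from the values, since the files do not name the unit: multiplied by GENCODE M21 exon lengths, 97.4% to 97.6% of values under 1000 fragments fell within 0.05 of a whole number of fragments. The sources used here give neither the annotation release nor the strand setting.

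FPKM were tested as log2(FPKM + 0.1) with limma 3.58.1 (R 4.3.3; mean-variance trend, two-sided, Benjamini-Hochberg over all 16513 genes with a mean of at least 0.5 FPKM in either group). The script was tested on simulated data. Alternatives were pseudocounts of 1 and 0.01, no filter and a filter of 1 FPKM, quantile normalization, a common sum, removal of the length and GC trend, array quality weights, voom on recovered fragments, a replicate block and each library left out. All 34 members are accounted for; called members are given by library. The members, neighbouring genes and markers were chosen with earlier results of these data known. Libraries held 18174420 to 23200999 recovered fragments, which limits the precision of low values. Promoters are those of RefSeq (GRCm38.p6).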

Additional observations from a re-analysis of the deposited data

How the results depend on the processing

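Of the 528 member changes recomputed under 16 alternatives, 482 kept direction and side of the threshold, 31 lost the call, 9 gained it and 6 reversed; each reversed change was uncalled throughout. With the length and GC trend removed, Insig2 was at -0.024 and Mvk at -0.067, and 10 members and 8 neighbouring genes were called lower. With no filter on low values, 3 neighbouring genes were called lower. Leaving out 1 library at a time gave 2 to 4 members higher, 2 to 8 members lower, 2 to 11 neighbouring genes lower and 847 to 2986 genes called in all. Over those 6 fits Mvd ranged from -0.10 to 0.050, Fdft1 from -0.081 to 0.0030, Mylip from -0.031 to 0.21 and Mvk from -0.011 to 0.093. With the replicate block 1330 genes were called in all, among them 3 members higher and 5 lower. Deviations of same-numbered libraries correlated at 0.02, -0.10 and -0.03. With 3 libraries per group these values cannot show whether the numbers pair the mice, and the labels state no pairing. The cause of these shifts was not tested. Low values limit Fdps and the vehicle level of Ch25h, which rested on 9 to 29 fragments.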
